A study of Drosophila melanogaster with 3 samples.

Results

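The regions described here are the peaks of the az2 protein in pericentromeric heterochromatin, the DNA that flanks the centromeres. They were chosen by position alone: all peaks of the pooled dm6 list whose summit lies on 2L beyond 22 Mb, on 3L beyond 22.9 Mb, on 3R before 4.2 Mb or on X beyond 22.6 Mb. These 4 windows hold 154 of the 22291 pooled peaks of their 4 arms, and of 27145 pooled peaks in all. The other 22137 peaks, from the rest of the same arms, serve as the comparison. The data are ChIP-seq (sequencing of DNA fragments that come down with a protein) of Drosophila melanogaster embryos aged 0 to 16 hours, males and females pooled. The embryos came from a transgenic line that stably makes az2, a zinc finger protein, tagged with GFP at the C terminus, and chromatin was brought down with an anti-GFP antibody. There was 1 group of 3 biological replicates, with no second genotype, stage or treatment, so no groups are compared and each measure is of whole embryos. With whole embryos, a site held in fewer cells and a site held more weakly in every cell cannot be told apart.

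Pericentromeric heterochromatin is compacted chromatin that carries methylated histone tails and the heterochromatin protein HP1a. Its DNA is rich in satellite repeats and in remains of transposons, and it replicates late. It nevertheless holds essential genes, many with very long introns filled with transposon sequence, and several of these genes need a heterochromatic surrounding for full expression. A peak can be placed only where reads map, so densities are given per Mb of assembled sequence and, beside it, per Mb of unique words. A unique word is a stretch of 31 bases that occurs once in the genome on either strand. In the windows 40.2% of the words are unique, against 94.4% in the rest of the arms. How reads with several matches were treated is not given in the sources used here.

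The sequences below run 100 bp to either side of the summit, on the plus strand of dm6. They show the highest member of each arm whose window touches no UTR, and the highest such member with a transposon at its summit. Capitals mark the letters of the BEAF-32 core (CGATA, or TATCG on the other strand) and of the GAGA element (GAGAG, or CTCTC), the most frequent of the motifs searched.
chrX:22833631-22833831, intron of fog and of CG42346: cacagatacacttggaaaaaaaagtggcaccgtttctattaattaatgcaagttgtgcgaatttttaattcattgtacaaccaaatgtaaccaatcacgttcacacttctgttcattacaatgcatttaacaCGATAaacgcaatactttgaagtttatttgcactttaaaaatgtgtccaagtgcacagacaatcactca
chr2L:22121002-22121202, start of lncRNA:CR46480, upstream of CG3651: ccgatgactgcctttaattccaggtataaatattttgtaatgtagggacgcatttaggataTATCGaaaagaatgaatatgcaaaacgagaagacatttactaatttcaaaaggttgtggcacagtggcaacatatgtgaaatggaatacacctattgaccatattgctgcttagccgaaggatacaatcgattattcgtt
chr3L:26012500-26012700, intron of l(3)80Fg: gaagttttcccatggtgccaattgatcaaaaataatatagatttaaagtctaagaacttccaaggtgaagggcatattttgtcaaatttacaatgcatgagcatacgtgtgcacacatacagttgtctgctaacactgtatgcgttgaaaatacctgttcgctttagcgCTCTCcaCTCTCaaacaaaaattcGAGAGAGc
chr3R:4179035-4179235, intron of CG12581: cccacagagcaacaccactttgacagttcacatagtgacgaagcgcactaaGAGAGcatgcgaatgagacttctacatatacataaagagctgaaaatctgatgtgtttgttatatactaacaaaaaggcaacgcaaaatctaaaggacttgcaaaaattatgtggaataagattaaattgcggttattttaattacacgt
chrX:23004834-23005034, upstream of stnB, INE-1 element at the summit: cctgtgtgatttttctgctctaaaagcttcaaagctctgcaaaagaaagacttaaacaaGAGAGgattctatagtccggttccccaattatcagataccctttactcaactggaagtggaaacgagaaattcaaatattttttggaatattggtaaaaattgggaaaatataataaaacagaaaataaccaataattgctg
The X intron sequence is the single one of these 5 that belongs to the list kept by the irreproducible discovery rate (IDR). The 3L sequence holds 4 GAGA matches in its last bases, of which a pair overlap.

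Az2 peaks were sparse in the pericentromeric windows. The 154 peaks lay on 11.9 Mb, a density of 13.0 per Mb (95% exact Poisson interval 11.01 to 15.2), and the rest of the arms held 232 per Mb, 17.9 times as many. Per Mb of unique words the densities were 32.7 and 246, a ratio of 7.53. The gap was thus smaller, but above 7-fold, on the length that unique words cover. The windows made up 11.1% of the length of the 4 arms and held 0.691% of their peaks. Chromosome 4, a small chromosome that is also rich in HP1a and repeats, had 209 pooled peaks per Mb and 252 per Mb of unique words.

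The arms were not alike. The window of 2L had 54 peaks, or 35.7 per Mb, and that of X had 33, or 35.0 per Mb. The window of 3L had 48 peaks on 5.21 Mb, or 9.21 per Mb. The window of 3R had 19 peaks on 4.2 Mb, or 4.52 per Mb. Per Mb of unique words the order was 73.1 on 2L, 67.8 on X, 23.1 on 3L and 13.5 on 3R, so the 2 short windows were the denser on both lengths. The intervals of 2L (26.8 to 46.5 per Mb) and X (24.1 to 49.2 per Mb) overlap almost wholly, and neither overlaps that of 3L (6.79 to 12.2 per Mb).

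Summed over the arms, density fell with distance from the boundary. Of the 154 members, 98 (63.6%) had their summit within 500 kb of it, where the density was 49.0 per Mb. This share was 57.4% on 2L, 37.5% on 3L, 89.5% on 3R and 97.0% on X, so on 3L most members lay further in, at a median of 879 kb. The X window is itself only 0.942 Mb long. Over the arms, the density was 11.8 per Mb from 0.5 to 1 Mb, 8.00 per Mb from 1 to 2 Mb and 2.40 per Mb further in. The 2L window ends at 1514 kb, so only 3L and 3R reach the last zone. Per Mb of unique words the same zones had 73.9, 30.8, 20.2 and 7.90 peaks, in the same order. On the euchromatic side the last 0.5 Mb before the boundary had 128 peaks per Mb (173 per Mb of unique words) and the 0.5 Mb before that had 182 (258 per Mb of unique words). Further out it was 192 per Mb from 1 to 2 Mb and 230 per Mb from 2 to 3 Mb (209 and 247 per Mb of unique words). Summed over the arms, the density per Mb of assembled sequence thus stepped down over several zones rather than at one point. Per Mb of unique words the zones outside the boundary had no steady order. The zones inside it differ in their arms. Single arms were less even. Per Mb of unique words, the 250 kb bins from 0 to 1000 kb had 140, 0, 42.2 and 112 peaks on 2L. They had 56.7, 44.6, 0 and 50.3 on 3L, 121, 9.23, 9.89 and 0 on 3R, and 82.6, 74.3, 18.2 and 0 on X.

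**Figure D1:**
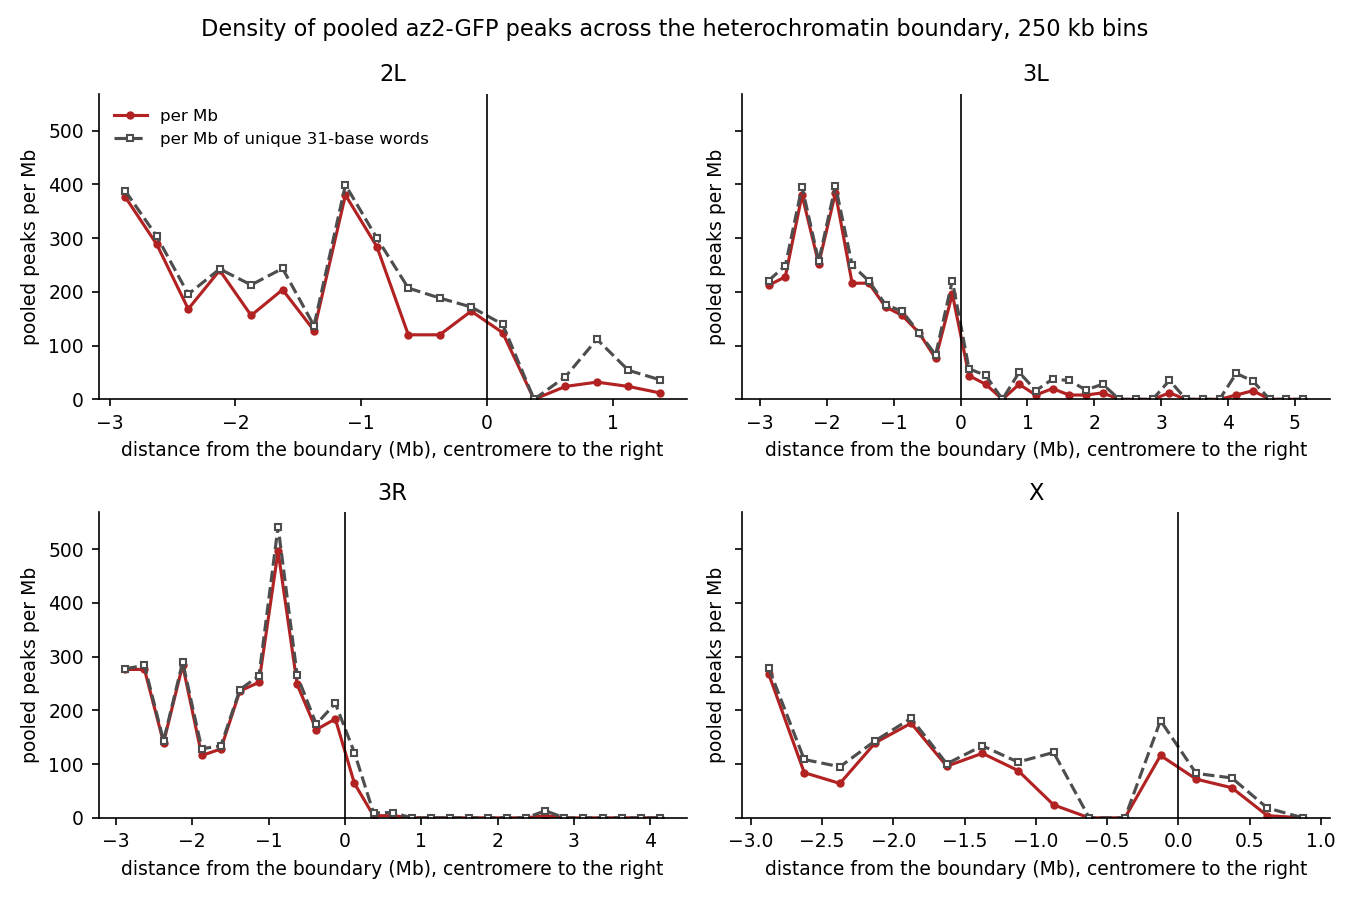
Pooled peaks per Mb (solid line) and per Mb of unique 31-base words (dashed line) in 250 kb bins, by distance in Mb from the boundary of each arm, with the centromere to the right. On 3R the line is at or near 0 from 0.25 Mb inward, while 2L and 3L keep scattered bins with peaks.

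The change across the boundary depended on the length used. Per Mb of unique words, the 0.5 Mb outside and the 0.5 Mb inside held 178 and 94.6 peaks on 2L, 151 and 51.2 on 3L, 193 and 70.8 on 3R, and 165 and 78.7 on X, lower inside on each arm. Per Mb of assembled sequence they held 142 and 62 on 2L, 136 and 36 on 3L, 174 and 34 on 3R, but 58 and 64 on X, where the direction turned. On X the outer 0.5 Mb was poorer in unique words (35.3%) than the inner one (81.3%). The single peaks nearest to each boundary on the inner side had signals of 38.7 on 2L, 50.5 on 3L, 37.95 on 3R and 37.9 on X. On the outer side they were 118, 38.04, 38.5 and 41.0 in the same order.

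Deep in the windows peaks stood in small groups with long gaps between them. Beyond 500 kb, 9.85 Mb held 56 peaks, and 24 of the 40 bins of 250 kb had none. Of these 56, 38 (67.9%) had another member within 5 kb, as had 70 of the 98 (71.4%) nearer to the boundary. Groups of 3 stood, for example, at l(3)80Fg, Tim23, RpL5, CG40006, Spf30 and RpL15. Some of these hold peaks that overlap, as at RpL5 and RpL15, so not every neighbour is a separate site. The longest stretch with no peak was 2161 kb on 3R, between 577 and 2738 kb from the boundary. On 3L it was 1122 kb, on X 436 kb and on 2L 285 kb. The peak at the far end of the 3R stretch has its summit at chr3R:1462435, in an intron of Myo81F, which encodes a myosin and spans 1966 kb. It had a signal of 47.3 and lay 95834 bp from the nearest annotated transcription start site (TSS). The deepest peak of all, 4379 kb into 3L, lay 121 bp upstream of Dbp80, which encodes a DEAD-box RNA helicase, with a signal of 79.4.

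The signal of the members was low. Signal is the value that the authors' lists give each peak. Its scale is not given in the sources used here, and it was treated as linear enrichment. The members ran from 37.8 to 272 with a median of 49.4, and the peaks of the rest ran from 37.8 to 4202 with a median of 62.3. Both sets share the lowest value, which is the floor of the pooled list. Of the members 41 (26.6%, exact binomial 95% interval 19.8 to 34.3) were above the median of all pooled peaks of the arms, against 50.2% of the rest.

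The shortage was larger among strong peaks. When the pooled peaks of the arms were cut into quartiles of signal, the windows held 66, 47, 33 and 8 members from the lowest to the highest quartile. The density of the rest over that of the windows was 10.4, 14.6, 20.9 and 86.5 in that order. Per Mb of unique words it was 4.37, 6.16, 8.79 and 36.4. The ratio thus rose at each step on both lengths.

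The IDR list, the authors' set thresholded on agreement between replicates, gives the same picture at its threshold. Its 5786 peaks were exactly the pooled peaks with a signal of 133 or more, and 3 members reached that value while 151 did not. These 3 are 1.95% of the members (0.404 to 5.59%), where 21.4% of all pooled peaks of the arms are IDR peaks. Counting a member as kept when its summit lay anywhere in an IDR peak gave 4 of 154, against 24.1% of all. The fourth is the neighbour of a kept peak, which it overlaps. The IDR density was 0.253 per Mb in the windows (0.0521 to 0.739) and 50.03 per Mb in the rest, a ratio of 198 (67.7 to 960, with the rest taken as fixed). Per Mb of unique words the densities were 0.637 and 53.1, a ratio of 83.3. On the log2 scale the ratio of windows to rest was -7.63 on assembled length and -4.03 with every boundary moved 500 kb away from the centromere. Kept only where the 5786 strongest peaks of both other replicates covered them, IDR peaks gave -8.92 (replicate 1 set aside) to -7.87. This filters the IDR list further and does not call it anew without a replicate. No IDR peak lay beyond 500 kb, where a count of 0 allows up to 0.304 per Mb. The 3R window had none either, so the rest of that arm was at least 70.0-fold higher, with 3 counts over the window as the floor, or at least 24.4-fold per Mb of unique words. Chromosome 4 had 16.3 IDR peaks per Mb and 19.6 per Mb of unique words.

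The density gap was seen in each replicate. In the whole replicate lists replicates 1, 2 and 3 had 140, 219 and 175 peaks in the windows, which is 0.574%, 1.19% and 0.717% of the peaks of the arms. Replicate 2 had the most although its list is the shortest (22372 peaks against 30000 in each of the others), and 101 of its 219 lay on 3L, where the others had 43 and 48. The density in the rest over that in the windows was 21.6, 10.4 and 17.2. With each list reduced to its 5786 strongest peaks, the windows held 2, 7 and 3 peaks and the log2 density ratio of windows to rest was -8.21, -6.41 and -7.63, a mean of -7.42 ± 0.918 (SD, n = 3). An exact two-sided sign-flip permutation test over the 3 replicates gave p = 0.25, the smallest it can give, so 3 replicates cannot pass 0.05.

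The signal gap had the same direction in each replicate. The median signal of window peaks against the rest was 12.6 and 15.5 in replicate 1, 24.2 and 30.9 in replicate 2, and 21.02 and 25.3 in replicate 3. The difference of the medians on the log2 scale was -0.29, -0.35 and -0.27, a mean of -0.30 ± 0.041 (SD, n = 3), with p = 0.25 in the same exact permutation test. Replicate signals are on scales of their own, so they are compared within a list only.

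**Figure D2:**
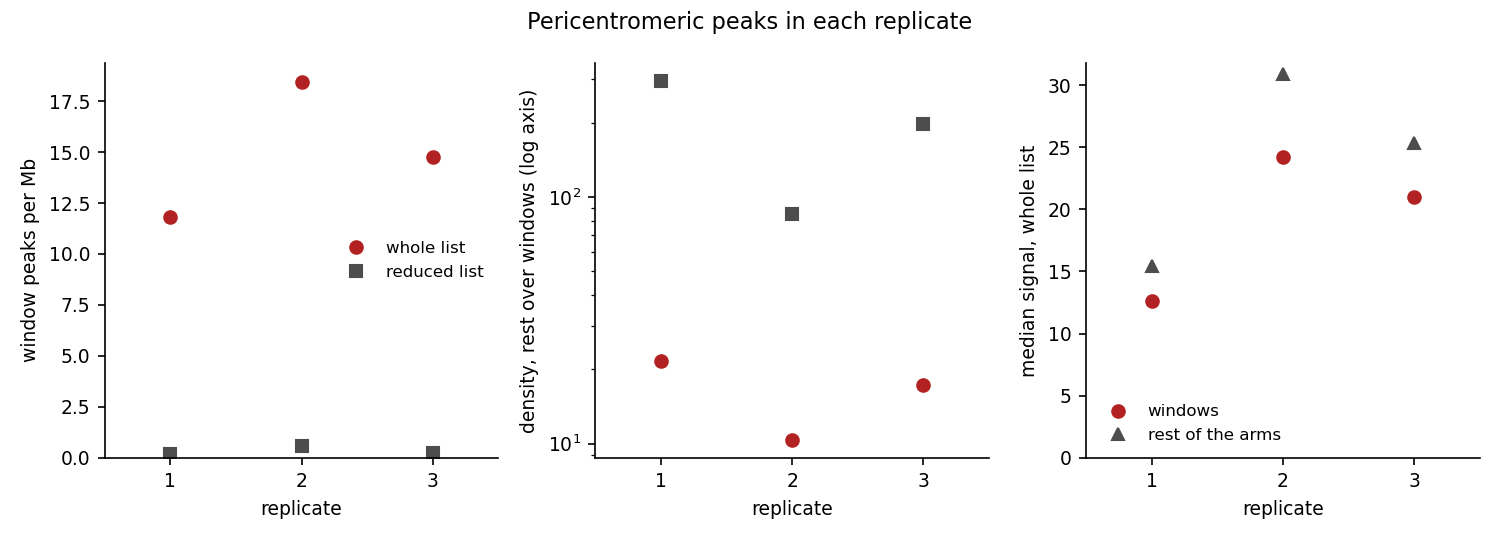
Window peaks per Mb (left), density of the rest over that of the windows on a log axis (middle) and median signal (right) for each of the 3 replicates. Whole lists are circles and reduced lists squares in the first 2 panels, while in the right panel circles are window peaks and triangles the rest of the arms. Each replicate has fewer and weaker peaks in the windows.

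A smaller share of the members than of other peaks was found in all replicates, and signal moved with that. The summit of 32 members (20.8%, 14.7 to 28.0%) lay in a peak of all 3 whole replicate lists, against 43.6% of the rest and 43.4% of all. A further 44 were covered in 2 replicates, 68 in 1 and 10 in none. Replicate 1 covered 61 members (39.6%), replicate 2 covered 90 (58.4%) and replicate 3 covered 101 (65.6%), against 68.7%, 66.2% and 76.8% of all pooled peaks of the arms. The gap was thus widest in replicate 1 and narrowest in replicate 2. Within the third quartile of signal 22 of 33 members (66.7%) were covered in all 3 replicates, and 61.0% of the rest. In the highest quartile it was 7 of 8 (87.5%) and 97.4%, and in the lowest 1 of 66 (1.52%) and 2.38%. In the second quartile 2 of 47 members (4.26%, 0.52 to 14.5%) and 12.8% of the rest were covered in all 3. In each of the 4 quartiles the interval of the members includes the share of the rest.

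**Figure D3:**
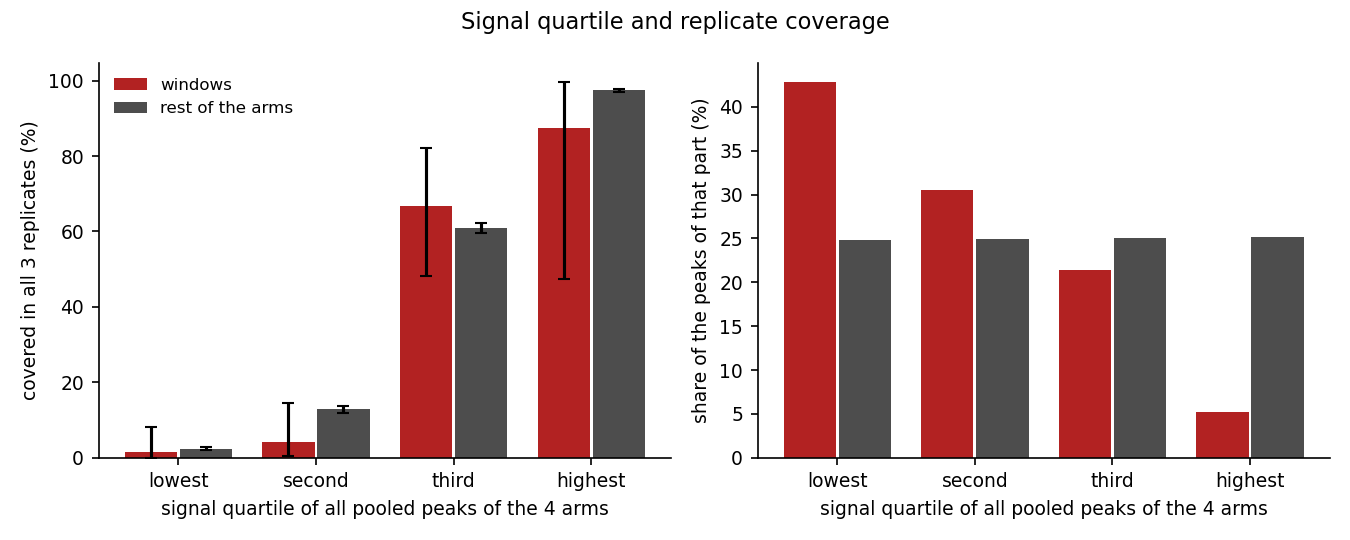
Left, share of peaks covered in all 3 replicates by signal quartile, with exact binomial 95% intervals, for the windows and the rest of the arms. Right, share of the peaks of each part that falls in the quartile: 42.9% of the members are in the lowest and 5.19% in the highest.

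The highest member, at chrX:22833673-22833795, was 123 bp wide, whereas most peaks were 430 bp. It had a pooled signal of 272, rank 1947 of the 22291 pooled peaks of the arms, and 62.5, 118 and 87.6 in replicates 1, 2 and 3. It lies in an intron shared by fog and CG42346, 234 kb into the window. The gene fog encodes the secreted ligand that sets off apical constriction at gastrulation. The nearest annotated start, 148 bp away, is that of the mir-2491 record, which marks a hairpin and not a measured promoter. The second, at chr3L:23095252-23095681, had a pooled signal of 144 and 45.0, 37.7 and 65.1 in the replicates. Its summit is in the 5' UTR of RpL10, a protein of the large ribosomal subunit, 4 bp from the start. The third, at chr2L:22024228-22024657, had a pooled signal of 136 and 30.4, 48.0 and 51.5 in the replicates. It lies in the 3' UTR of tio, which encodes a zinc finger protein related to teashirt, 24.4 kb into the window.

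All 3 were covered in every whole replicate list, as were 97.4% of the peaks of the rest in the highest signal quartile. In the lists reduced to 5786 peaks the X intron peak alone was covered in all 3, with replicate ranks of 2511, 2182 and 2769. The share covered in the reduced lists was not computed for IDR peaks of the rest. Whether the members differ from those peaks was therefore not tested. The RpL10 peak ranked 4035, 8477 and 4127, and the tio peak 6631, 6424 and 5613. Just under the IDR threshold stood the 2L peak at lncRNA:CR46480 with a signal of 128 and 32.5, 57.8 and 39.97 in the replicates, so the gap between the kept and the other members was small.

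**Figure D4:**
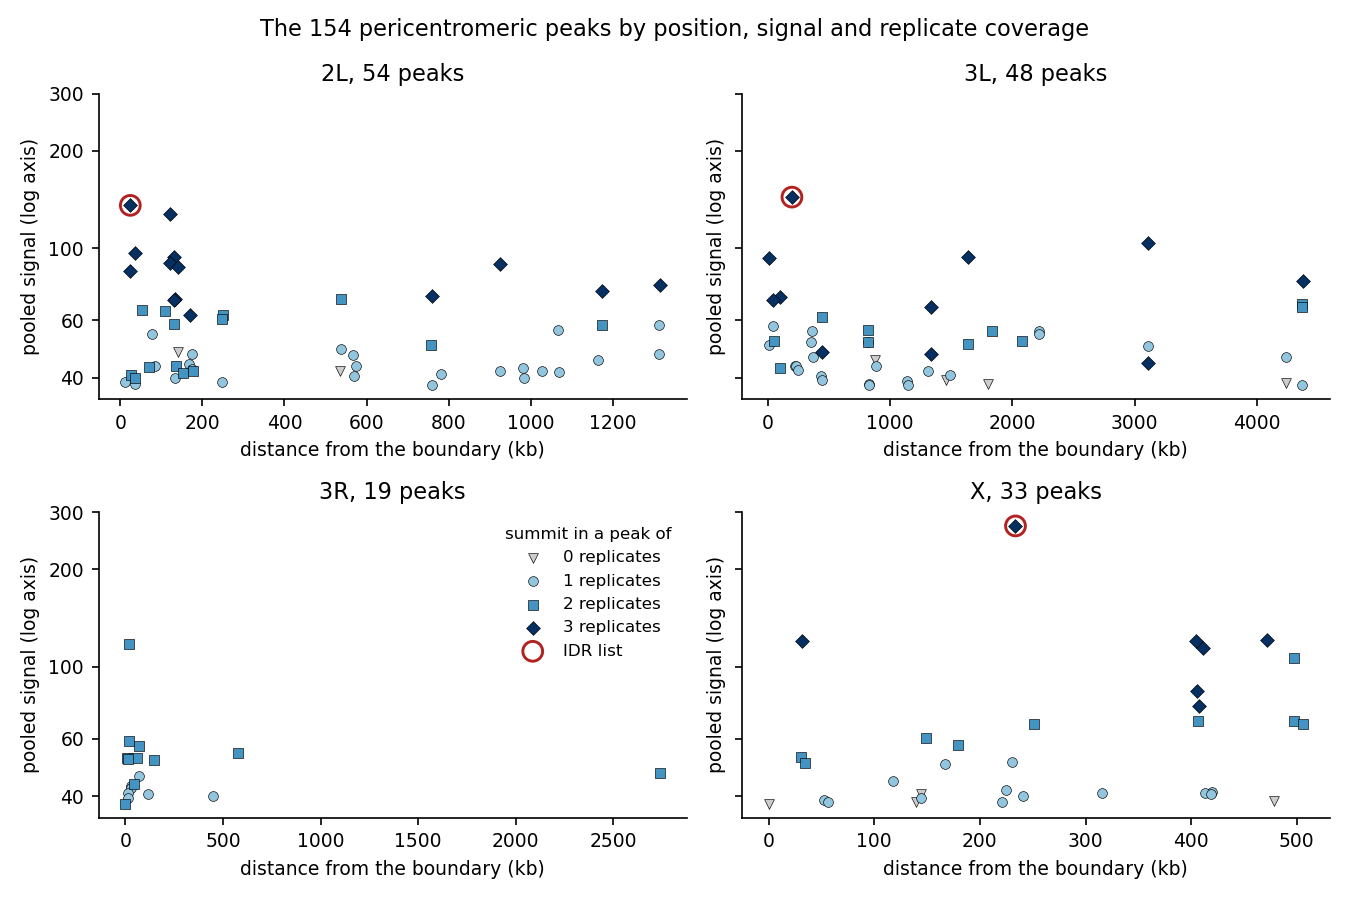
Pooled signal of each of the 154 members on a log axis against its distance from the boundary in kb, by arm; the marker gives the number of replicates that cover it and a ring marks the IDR list. The 3 ringed peaks lie within 250 kb of a boundary.

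Start sites of genes were over-represented among the members for the room they take up. Of the members 56 (36.4%, 28.8 to 44.5%) had their summit within 500 bp of a TSS, against 29.1% of the rest. Only 3.90% of the unique words of the windows lie that near a TSS, and 15.2% in the rest. Near a TSS the windows had 304 peaks per Mb of unique words and the rest 470, a ratio of 1.55. Further away they had 21.6 and 206, a ratio of 9.51. In the pooled list the gap between windows and rest was thus larger away from start sites than at them. In the IDR list, with 2 members near a TSS and 1 away, the ratios were 14.3 and 157, so at that threshold the gap at start sites was not small.

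Each replicate showed that split, with other sizes. Near a TSS the rest over the windows was 1.63, 1.51 and 1.90 in replicates 1, 2 and 3, and away from a TSS it was 12.7, 4.51 and 8.16. The log2 of the second over the first was 2.97, 1.58 and 2.10, a mean of 2.22 ± 0.701 (SD, n = 3), with p = 0.25 in the exact sign-flip permutation test, again the smallest possible. The share of window peaks near a TSS itself went both ways, at 44.3%, 20.1% and 28.0% in the 3 replicates against 31.01%, 27.1% and 28.6% in the rest.

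Members near a TSS were the stronger ones. Their median signal was 58.3, against 43.5 for the 98 members further away. Of the 56, 20 (35.7%) were covered in all 3 replicates, against 12 of the 98 (12.2%). In the rest of the arms the medians were 82.5 and 57.4, and 54.6% and 39.0% were covered in all 3. The rest was thus higher in both classes and had the same order. Of the 56 summits 36 (64.3%) were upstream of the nearest TSS, and 69.8% in the rest. By place in the annotation 74 members were intergenic (48.1%) and 51 intronic (33.1%), against 34.2% and 48.8% of all pooled peaks of the arms. There were 11 in a 5' UTR (7.14%), 6 in a 3' UTR (3.90%) and 12 in another exon (7.79%). Of all pooled peaks these places held 6.50%, 3.31% and 7.21%, about the same shares. Intergenic sequence held 41.4% of the unique words of the windows and 26.2% in the rest. Introns held 51.2% of the unique words of the windows, more than their share of the members. In the rest of the arms 48.9% of peaks and 43.2% of unique words were intronic.

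Counted from the genes, fewer starts in the windows had a peak. After TSSs within reach of each other were merged, 43 of 199 TSS regions in the windows (21.6%, 16.1 to 28.0%) held a pooled summit, against 41.6% of the rest and 41.3% of all. For the IDR list it was 2 of 199 (1.01%, 0.122 to 3.58%), against 16.3% of the rest and 16% of all. The 2 are those at RpL10 and at the mir-2491 record. Among protein-coding genes 39 of 116 in the windows had a pooled peak at a promoter (33.6%, 25.1 to 43.0%), and 49.8% in the rest. Among genes of noncoding RNAs it was 11 of 57 (19.3%, 10.05 to 31.9%) and 27.4%.

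A list of 24 genes known from textbooks to lie in pericentric heterochromatin was looked up, and 23 of them have a TSS in the windows. Of these, 12 had a pooled peak within 500 bp of a TSS and 11 had none. Of all protein-coding genes, 33.6% in the windows and 49.8% in the rest had such a peak. With the highest peak taken for each gene, and 1 shared by stnA and stnB, there were 11 peaks. None of the 11 was in the IDR list, which had promoter peaks at 0.862% and 23.5% of those protein-coding genes. Signals ran from 42.7 to 121 with a median of 66.1 over the peaks. Of the 11 peaks 3 were covered in all 3 replicates, against 35.7% of all members near a TSS and 54.6% of such peaks in the rest.

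The strongest of these promoter peaks belonged to the stoned locus. The genes stnA and stnB, which lie on a shared dicistronic transcript and act in recycling of synaptic vesicles, had a peak of signal 121 at chrX:23004719-23005148, with 18.7, 66.7 and 34.8 in replicates 1, 2 and 3. The peak of su(f), needed to form the 3' ends of mRNAs, had a signal of 106. It had 26.9 and 43.8 in replicates 1 and 2 and no peak of replicate 3 at the summit. An overlapping member with a signal of 68.2, 143 bp upstream of a su(f) start, had 14.6 in replicate 1 and 31.9 in replicate 3. The peak of lt, whose product helps deliver vesicles to the lysosome, lay 84 bp upstream of its start at 89.8, with 20.3, 43.5 and 17.1 in the replicates.

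The other genes had lower promoter peaks. The peak of Dbp80 at 79.4 stood at ranks 8355, 11032 and 12377 of the 3 replicate lists. RpL5 and RpL15, of the large ribosomal subunit, had promoter peaks of 70.0 and 66.1, each covered in 2 replicates. At RpL5 these were replicates 2 and 3. An overlapping RpL5 member of 48.9, 12 bp upstream of the nearest start, was covered in replicate 1, at 22.6. The promoter peak of alpha-Cat, which ties cadherin to the actin cytoskeleton, had 61.7 and was also covered in 2. The peaks of MED21 (a Mediator subunit, 54.4), vtd (the cohesin subunit Rad21, 46.4), Gfat1 (an enzyme of hexosamine synthesis, 46.2) and cta (the G protein alpha subunit that acts downstream of fog, 42.7) were each covered in 1 replicate.

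**Figure D5:**
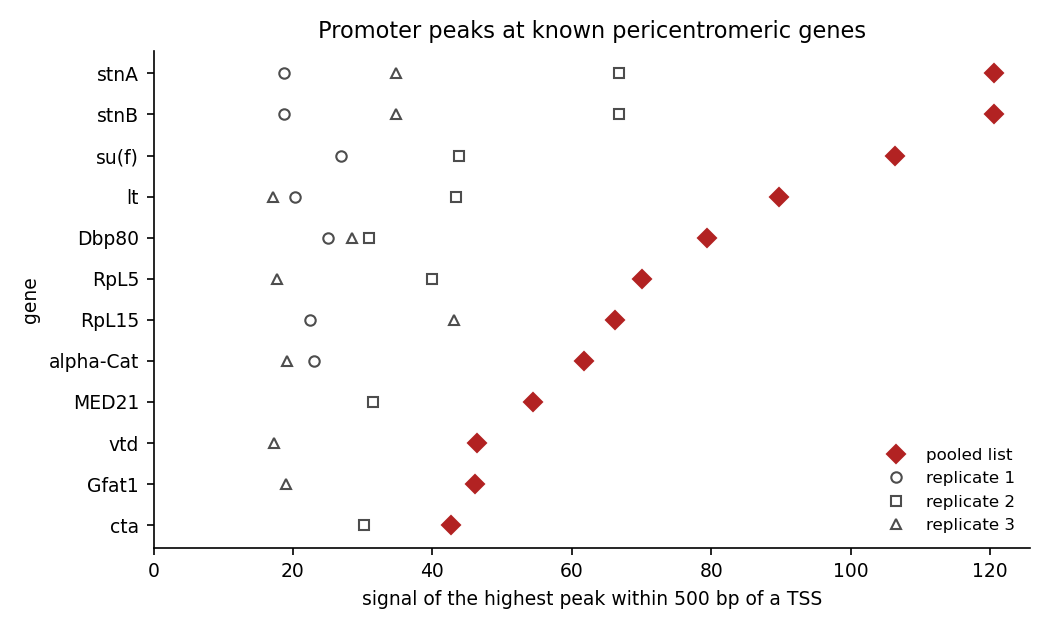
Signal of the highest pooled peak within 500 bp of a TSS (diamonds) for the 12 genes of the textbook list that had one, with the signal of the covering peak in each replicate (open markers) where there was one. Pooled and replicate signals are on different scales. The peaks of stnA and stnB (shared), lt and Dbp80 have all 3 replicate markers.

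No pooled peak lay within 500 bp of a TSS of the other 11: AGO3 (a piRNA pathway Argonaute), Set1 (a histone H3 methyltransferase), Parp1, Snap25 (a synaptic SNARE protein), the ecdysone synthesis enzymes nvd and spok, eIF4B, nrm, Myo81F, Pzl and lovit. Several genes of the list are very long, and some of these held few or no members. Myo81F had 1 member over 1966 kb and Pzl none over 709 kb. There was none in lovit over 434 kb, in AGO3 over 135 kb or in Parp1 over 126 kb, nor inside Dbp80 over 143 kb. At the 5.68 members per Mb seen beyond 500 kb, AGO3, Parp1 and Dbp80 would hold less than 1 each, so their 0 says little. Members were sparser still in the stretches that hold the longest genes. The zone beyond 2 Mb, which holds lovit, had 2.40 per Mb. On 3R, the arm of Myo81F and Pzl, 17 of 19 members lay within 500 kb of the boundary. These genes themselves fill part of those stretches, so the low counts and the sparseness are not separate observations. Whether the genes hold fewer members than the sequence around them was not tested. Snap25 had 3 members over 225 kb and nvd had 2 over 76.8 kb, none of them within 500 bp of that gene's start sites.

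The genes with the most members were these. CG42748 on 2L held 7 members over 35.0 kb, the highest at 87.7. The noncoding RNA gene lncRNA:CR44997 on X also held 7, over 140 kb, none above 60.3, which is about the density of the first 500 kb of the windows. The gene fog held 5 over 30.9 kb and CG12581 on 3R held 4 over 12.1 kb. Next to CG42748 stood CycK, the gene of a cyclin that acts in transcription, with a signal of 94.0 and 22.9, 46.6 and 26.3 in the replicates. The start of Clamp, which encodes a zinc finger protein that binds GA repeats, had a peak of 62.3 with 13.3, 34.4 and 42.4 in the replicates. In all 14 members overlapped the next pooled peak, so such neighbours are not independent sites.

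Members lay in unique sequence. In 109 of the 154 peaks (70.8%) every 31-base word was unique, and the median share of unique words was 100%. In the rest of the arms 96.4% of peaks were wholly unique. A single member had under 50% of unique words, the one at 3R with its summit 526 bp upstream of CG12581, at 22.2% and a signal of 52.5. The GC content around the summit had a median of 35.8% in members and 37.8% in the rest.

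Transposons were at the summits about as often as in the unique sequence around them. An annotated transposon covered the summit of 17 members (11.04%, 6.56 to 17.1%), and transposons make up 11.05% of the unique words of the windows. In the rest of the arms the values were 0.456% of summits and 0.522% of unique words. Of the 17, 10 were in INE-1, an old and short element that is common near centromeres. INE-1 made up 351 of the 1257 annotated elements in the windows (27.9%) and 41.6% of those in the rest. These are shares of elements and not of unique sequence, and the difference from 10 of 17 was not tested. The highest INE-1 peak was the stnB peak shown above, and the other INE-1 peaks had signals of 64.5 or less. Cr1a had 2 and FB, H, HB, gypsy8 and transib2 had 1 each. Of these 17 peaks, 1 was covered in all 3 replicates, against 20.8% of all members and 43.4% of all pooled peaks of the arms. Coverage went with signal, and this difference was not tested.

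The sequences around the summits were searched for 8 motifs, over 100 bp to either side and on both strands, and the commonest ones had about the shares seen at all peaks. The BEAF-32 core (CGATA) was found at 39 members (25.3%, 18.7 to 33.0%) and at 23.9% of all pooled summits of the arms, in windows of the same length. The GAGA element (GAGAG) was found at 35 members (22.7%, 16.4 to 30.2%) and at 21.98% of all. The E-box (CAGCTG) was found at 5 (3.25%, 1.06 to 7.41%) and at 8.49% of all, and the interval of the members ends below the share of all. It is 1 of the 8 motifs searched, the interval counts overlapping members as separate, and no test was run. The DRE (TATCGATA), whose letters include the BEAF-32 core, was found at 1 member and at 2.11% of all, and the CTCF core (AGNNGGCGC) at 1 and at 2.37%. Core promoter Motif 7 was found at 4 members, Motif 6 at 1 and Motif 1 at none, against 3.33%, 0.552% and 0.772% of all. A match is a run of letters and not a shown binding site.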

How the data were processed

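ChIP-seq peak lists of the 3 replicates, of their pooled reads and of the IDR set were used as the authors deposited them, on the build dm6, per the labels. Sonication gave chromatin fragments of 200 to 800 bp, per the labels. The peak caller, its settings and the aligner are not given in the sources used here. Column 7 of each deposited list was taken as the authors' signal, an enrichment score per peak that is never negative. Column 10 is the deposited summit offset in bp from the peak's start, an other kind of value. Peak lists hold no read counts, so depth per sample is unknown, and 2 of the replicate lists stop at 30000 peaks.

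Coordinates count from 1. TSSs, exons and transposons came from the Ensembl annotation BDGP6.54 (release 115) and sequence from the RefSeq genome of the same build. Densities, shares and medians were computed with Python 3.11.15, numpy 2.4.6, pandas 2.3.3 and scipy 1.17.1, and the functions were tested on simulated data with planted ratios. Intervals are exact 95% Poisson or binomial (Clopper-Pearson) intervals and cover counting error only. Tests were exact sign-flip permutation tests over the 3 replicates. Where all 3 values have the same sign, this exact permutation test gives its smallest possible p-value, whatever their spread. Its result thus records only that the replicates share a direction. A replicate covered a member when one of its peaks held the member's summit.

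The members, the gene list and the motifs were chosen with earlier results of these data known. The rule for named regions asked for the 12 IDR members of highest signal, the highest member of each arm, the peaks at the boundaries and the promoter peaks of the gene list. As the IDR list held 3 members, all other regions named, and 4 of the 5 sequences, were chosen after their values were seen. The split by distance to a TSS was also added after seeing the data. Alternatives covered the boundaries, the arms, the list, the length measure, the TSS window and the replicates. For IDR densities and TSS shares, a replicate was set aside by keeping the IDR peaks that the reduced lists of both others covered. There was 1 group, so no contrast and no pairing.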

Additional observations from a re-analysis of the deposited data

Results flagged for a closer look

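The older build dm3 keeps much of the heterochromatin on separate scaffolds, which the comparisons above did not use. The pooled dm3 list had 33 peaks on the heterochromatin scaffolds of chromosomes 2, 3 and X, of 23697 in all (0.139%). They are listed because the dm3 lists were not used in the comparisons above. These lists come from the same replicates, so the scaffold peaks are not independent data. Whether they are the same sites as members of the windows was not tested, and they are not counted as further sites. The length of the scaffolds was not used here, so the share is not read against an expected one. They were 6 on 2LHet, 6 on 2RHet, 10 on 3LHet, 7 on 3RHet and 4 on XHet. Their median signal was 54.4, against 68.1 for the list, and the highest was 122, at rank 6295. None was in the dm3 IDR list of 5504 peaks, which allows a share of up to 0.0545%. The replicate lists had 40, 58 and 37 such peaks.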

How the results depend on the processing

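The IDR density ratio was -7.63 on the log2 scale and kept its direction under each alternative run, from -8.92 to -2.91, the latter for the pooled list per unique word. A replicate filter kept only IDR peaks that the reduced lists of both other replicates covered, for each replicate in turn. With this filter the ratio ran from -8.92 to -7.87. The IDR list itself was not called anew without a replicate. Boundaries moved 500 kb away from the centromere gave -4.03, and moved 500 kb toward it they left no IDR peak and so no ratio. The median signal difference was -0.34 and ran from -0.69 (IDR list) to -0.27. As a mean over the replicate lists it ran from -0.32 to -0.28 with each replicate left out. The share of pooled peaks kept by IDR, 2.60% by summit, was 0% with the boundaries moved toward the centromere and 12.2% with them moved away. The share of TSS regions with an IDR summit, 1.01%, became 0% and 6.32% under the same moves and 21.6% with the pooled list. It was 0.503% to 1.01% with the replicate filter. The share of IDR members covered in all replicates was 100%, which also fixes it when fewer replicates are asked for. It was 33.3% with the reduced replicate lists and 20.8% with the pooled list. No matching share with the reduced lists was computed for the IDR peaks of the rest. The share of IDR summits near a TSS, 66.7% of 3 peaks, was 100% without 2L, with the stronger IDR peaks alone and with each replicate filter. In these cases 1 or 2 peaks were left. The share was 50% without 3L and without X. No paired analysis was possible because there is 1 group. The boundaries are round positions, so results near them rest on where they were drawn. With 3 IDR members no share among them is precise. Background of the GFP antibody and the handling of repeats by the aligner were not analysed here.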
